A study of Homo sapiens with 2 samples.

Results

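The S100 genes encode small EF-hand proteins that bind calcium. The 10 examined here, S100A2, S100A4, S100A6, S100A8, S100A9, S100A10, S100A11, S100A13, S100A14 and S100A16, were taken by symbol from the 27685 genes listed for both libraries. All 10 lie on chromosome 1. The cells were NCI-H838, an established line of human lung adenocarcinoma, and total RNA was taken 48 hours after transient transfection by lipofection. Cells of one culture carried a plasmid with full-length LINC00472, an intergenic noncoding RNA, and those of the other carried the empty pCDH plasmid. With 1 library per group, differences have no replicate check and no p-values, and each interval covers only the error of counting. The comparison asks which transcripts differ when LINC00472 is supplied in excess.

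S100 proteins work mainly as dimers. Calcium opens a binding face on each subunit, and the dimer then grips a target such as an annexin or a myosin heavy chain. Some members also act outside the cell, where AGER (the receptor for advanced glycation end products) and the Toll-like receptor TLR4 are known to respond to them. In carcinomas, S100A4 is best known for its link to cell motility, and S100A8 with S100A9 form calprotectin, the metal-binding protein of neutrophils and inflamed epithelium.

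The LINC00472 library held 21093055 gene counts and the control library 54823706. LINC00472 itself had 5655 counts in LINC00472 cells and 2563 in control cells, a TMM-scaled log2 ratio of 2.23 (95% counting interval 2.16 to 2.30). Markers listed for the cell type were partly present. KRT7, KRT8, KRT18, EPCAM, CDH1 and NAPSA were at or above the expression minimum, a mean of 1 CPM (counts scaled to TMM-adjusted library size), whereas the lung lineage genes NKX2-1 and SFTPB had 0 counts in both libraries. KRT19 had 0 counts in LINC00472 cells and 44 in control cells. The summed level of the 9 epithelial and lung markers was 68.0 FPKM in LINC00472 cells and 292 FPKM in control cells. KRT18, KRT8 and KRT7 were called lower, NAPSA was called higher with 88 counts in LINC00472 cells and 66 in control cells (log2 ratio 1.49), and CDH1 (0.47) and EPCAM (-0.19) were not called. FPKM, as the authors deposited it, divides fragments by transcript length and by the size of the library.

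Upstream sequences are shown for 3 members to set calprotectin beside another member: S100A9, whose level differed least, S100A8, which pairs with it and was lower, and S100A11, which was lower too. Each is read from the RefSeq promoter table of GRCh38.p14, 5′ to 3′ on the strand of the gene, from 250 bases before the annotated start up to the start or to the first base annotated as exon in GENCODE 29. The stretches are chr1:153357604-153357853 (plus strand) for S100A9, chr1:153391189-153391438 (minus strand) for the start of S100A8 that lies farthest upstream, and chr1:152037036-152037254 (minus strand) for S100A11. Capitals mark matches, on either strand, to the TATA box TATAAA, the GC box GGGCGG, the CCAAT box CCAAT or the AP-1 site TGANTCA.
S100A9: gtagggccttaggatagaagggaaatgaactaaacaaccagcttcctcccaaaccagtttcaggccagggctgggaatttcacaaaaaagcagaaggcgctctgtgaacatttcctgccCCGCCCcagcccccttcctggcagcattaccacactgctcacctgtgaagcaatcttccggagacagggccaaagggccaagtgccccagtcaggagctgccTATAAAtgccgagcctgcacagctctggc
S100A8: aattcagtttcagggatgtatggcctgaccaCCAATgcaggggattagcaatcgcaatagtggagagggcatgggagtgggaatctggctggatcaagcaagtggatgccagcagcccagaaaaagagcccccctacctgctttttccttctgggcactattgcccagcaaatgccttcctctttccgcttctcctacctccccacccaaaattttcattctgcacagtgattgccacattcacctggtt
S100A11: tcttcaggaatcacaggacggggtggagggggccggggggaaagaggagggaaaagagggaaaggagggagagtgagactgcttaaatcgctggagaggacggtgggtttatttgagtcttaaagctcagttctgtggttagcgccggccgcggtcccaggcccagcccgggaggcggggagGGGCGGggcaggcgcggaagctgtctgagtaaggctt
In these stretches S100A9 holds 1 TATA box and 1 GC box, S100A8 holds 1 CCAAT box and S100A11 holds 1 GC box, and no pair of matches shares a base. Over the full windows, which run 50 bases past each start, all 10 members were matched with 16 windows. TATAAA was found for 4 members (S100A4, S100A8, S100A9 and S100A13), against 13.99% of 27305 genes in the table. The 6 members with GGGCGG were S100A6, S100A9, S100A10, S100A11, S100A13 and S100A16, against 48.3% of genes. The CCAAT box was found for 3 members (39.7% of genes) and TGANTCA for S100A2 alone (9.37% of genes). The TATA box is thus found both in S100A9 and in members that were lower by more than 2-fold; in S100A8 it lies in the windows of starts that are not printed. Matches are letters in a window and say nothing of binding.

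Transcripts of 8 of the 10 members were lower in the LINC00472 library. S100A10 was 5.95-fold lower, S100A4 5.01-fold, S100A8 4.59-fold, S100A11 4.01-fold, S100A16 3.85-fold, S100A13 3.26-fold, S100A6 3.19-fold and S100A2 2.30-fold lower. No member was higher. A gene is called lower or higher here when its mean level is at least 1 CPM, its ratio is at least 2-fold and its 95% counting interval excludes equality. Of the members, 9 reached that minimum, and the lowest of them still had 1.54 CPM in the LINC00472 library, so none passed through its control value alone.

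The background was large. Of 14012 genes at the minimum, 23.8% were called lower and 16.3% higher, and of 12393 protein-coding genes 26.2% were lower and 11.5% higher. The balance depends on the scaling. Of all calls, 40.6% were on the higher side under TMM, 63.9% when upper quartiles set the scale and 57.9% when totals did, and the gene-wide median moved accordingly to 0.21 under upper quartiles and 0.11 under totals. The median log2 ratio of the 9 members was -1.94, beside -0.19 for all genes and -0.31 for protein-coding genes. Short messenger RNAs as a class lay much lower than long ones, and S100 messenger RNAs are short, with matched GENCODE transcripts of 495 to 1202 nt. Among 985 other protein-coding genes in the length range of the members, 66.1% were called lower and 6.09% higher, with a median log2 ratio of -1.47. The 8 of 9 members called lower (88.9%) are to be read against that share. In bulk RNA, fewer transcripts per cell and fewer cells that carry them cannot be told apart.

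**Figure D1:**
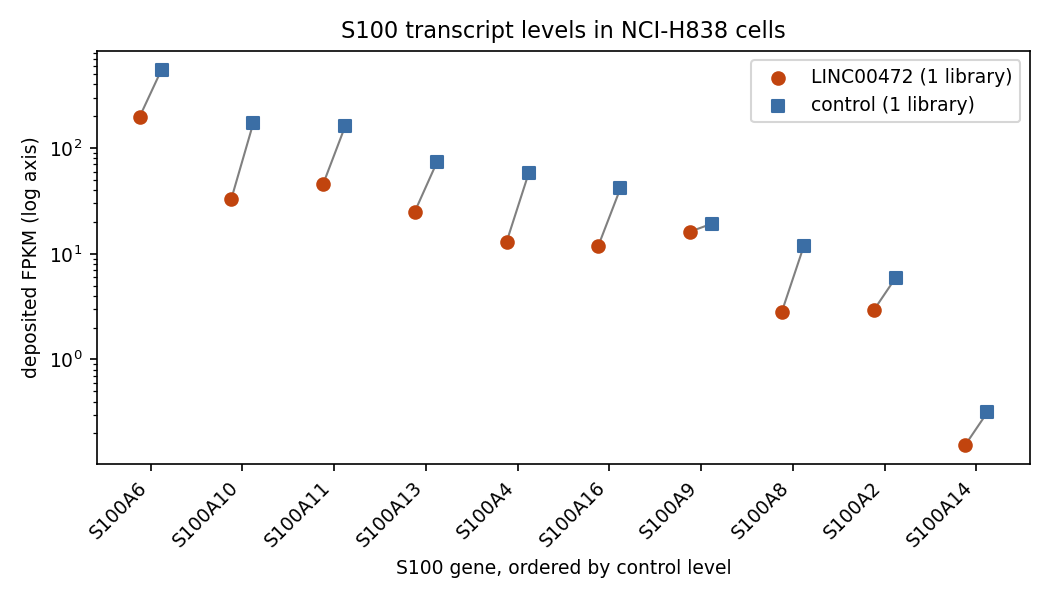
Deposited FPKM (log axis) of the 10 S100 genes in the LINC00472 library (circles, left) and the control library (squares, right), 1 library each, ordered by control level. All 10 circles lie below their squares, and the gap is smallest for S100A9 (16.2 against 19.3 FPKM).

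By level per kilobase, S100A6 was the most abundant member in both libraries. S100A6, known as calcyclin, had 197 FPKM in LINC00472 cells and 553 FPKM in control cells. That placed it at rank 87 of 19368 protein-coding genes in LINC00472 cells and rank 76 in control cells, so it stayed near the top of the list while its level was lower. The partners of annexins stood next. S100A10 had rank 1655 in LINC00472 cells and rank 300 in control cells, and S100A11 had rank 1023 in LINC00472 cells and rank 337 in control cells. In the control library the order was S100A6, S100A10, S100A11, S100A13, S100A4, S100A16, S100A9, S100A8, S100A2 and S100A14. In the LINC00472 library S100A11 stood above S100A10, S100A9 moved up to the fifth place, and S100A2 stood just above S100A8. Counting intervals do not say how far such neighbours would move between cultures.

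Among the members that bind annexins, S100A10 differed most. S100A10, also called p11, no longer binds calcium in its EF hands and is held in a tetramer with annexin A2 at the cell surface. It had 821 counts in LINC00472 cells and 10390 in control cells, or 33.1 FPKM in LINC00472 cells and 173 FPKM in control cells. Its log2 ratio was -2.57 (95% counting interval -2.68 to -2.47). Only 3.06% of 948 protein-coding genes of similar length (within 25%) had a ratio as low or lower, and it differed from their median of -1.27 by -1.30. S100A11, a partner of annexin A1, had 636 counts in LINC00472 cells and 5427 in control cells, or 45.5 FPKM in LINC00472 cells and 161 FPKM in control cells. Its log2 ratio of -2.003 (interval -2.12 to -1.88) lay close to the median of -1.77 for 246 genes of similar length.

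The members tied to the cytoskeleton and motility were lower too. S100A4, which binds nonmuscle myosin IIA, had 159 counts in LINC00472 cells and 1698 in control cells, or 12.97 FPKM in LINC00472 cells and 57.6 FPKM in control cells. Its log2 ratio was -2.32 (interval -2.57 to -2.09), beside -1.81 for 175 genes of similar length, of which 85.1% were themselves called lower. S100A6 had 3166 counts in LINC00472 cells and 21507 in control cells, with a log2 ratio of -1.67 (interval -1.73 to -1.62). That ratio sat at the median of -1.69 for 312 genes of similar length, so S100A6 was lower than in control cells and level with its length class. S100A4 and S100A3 lie on the same strand and overlap in the annotation without shared exon bases. An annotated antisense gene overlaps exons of S100A6, and because no source used here states whether reads were counted by strand, reads of S100A6 and of that gene cannot be separated.

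S100A13 and S100A16 are broadly expressed members, and S100A13 is known for helping the release of the growth factor FGF1. S100A13 had 369 counts in LINC00472 cells and 2561 in control cells, or 25.1 FPKM in LINC00472 cells and 73.2 FPKM in control cells, a log2 ratio of -1.70 (interval -1.87 to -1.55). Its exons overlap those of S100A1 on the opposite strand, which had 0 counts in both libraries, and those of a processed transcript, AL162258.1, on the same strand, so the count of S100A13 is uncertain to the extent that reads of that transcript fell in it. For S100A16 there were 352 counts in LINC00472 cells and 2882 in control cells, or 11.9 FPKM in LINC00472 cells and 41.4 FPKM in control cells, and the log2 ratio was -1.94 (interval -2.11 to -1.78). S100A16 is among the longer members, and 16.5% of 1266 genes of similar length had a ratio as low or lower. S100A13 lay at the median of its length class, with 53.2% as low or lower.

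The epithelial members were scarce. S100A2, a nuclear protein of basal and squamous epithelium, had 66 counts in LINC00472 cells and 324 in control cells, or 2.91 FPKM in LINC00472 cells and 5.92 FPKM in control cells. Its log2 ratio was -1.20 (interval -1.61 to -0.82), and it did not reach 2-fold with total-count scaling (-0.91), upper quartile factors (-0.82) or FPKM with 0.5 added (-0.91). S100A14 had 4 counts in LINC00472 cells and 20 in control cells, below the minimum. Its interval (-3.24 to 0.35) includes equality, so a difference was not detectable at this depth.

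The subunits of calprotectin differed from each other. S100A8 had 36 counts in LINC00472 cells and 354 in control cells, or 2.83 FPKM in LINC00472 cells and 11.9 FPKM in control cells, with a log2 ratio of -2.20 (interval -2.75 to -1.71). For S100A9 the counts were 220 in LINC00472 cells and 633 in control cells, or 16.2 FPKM in LINC00472 cells and 19.3 FPKM in control cells, and its log2 ratio was -0.43 (interval -0.66 to -0.21). S100A9 did not meet the rule. The FPKM of S100A9 was 5.72 times that of S100A8 in LINC00472 cells and 1.62 times in control cells. The log2 ratios of S100A9 and S100A8 differed by 1.77 (exact conditional interval 1.22 to 2.36), a value that does not depend on the scaling between libraries. Against 228 protein-coding genes of similar length, 90.8% had a ratio as low as that of S100A9 or lower, and 22.1% of 181 such genes were as low as S100A8 or lower.

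Genes of other cell types that carry these S100 proteins were also unequal between the libraries. The squamous keratin genes KRT5, KRT6A and KRT14 had 0 counts in LINC00472 cells and 395, 407 and 64 in control cells. The blood cell genes MPO, LYZ and PTPRC had 0 counts in LINC00472 cells and 239, 49 and 32 in control cells. Of 4 squamous markers, 3 were at 0 in LINC00472 cells and 0 were at 0 in control cells, with a summed level of 0.0162 FPKM in LINC00472 cells and 6.82 FPKM in control cells. Of 8 markers of blood cells, 5 were at 0 in LINC00472 cells and 2 in control cells, with sums of 17.8 FPKM in LINC00472 cells and 19.0 FPKM in control cells. The blood cell list was not uniform: CD14 had 299 counts in LINC00472 cells and 256 in control cells, CD68 had 432 in LINC00472 cells and 1498 in control cells, and ITGAM had 8 in LINC00472 cells and 0 in control cells. Fibroblast markers summed to 1.93 FPKM in LINC00472 cells and 1.87 FPKM in control cells, and endothelial markers to 0.165 FPKM in LINC00472 cells and 0.118 FPKM in control cells. The origin of these counts was not tested, and whether any such cells were present is not known. Any part of other cells in the values of S100A2, S100A8, S100A9 and the scarce S100 genes was not tested either.

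**Figure D2:**
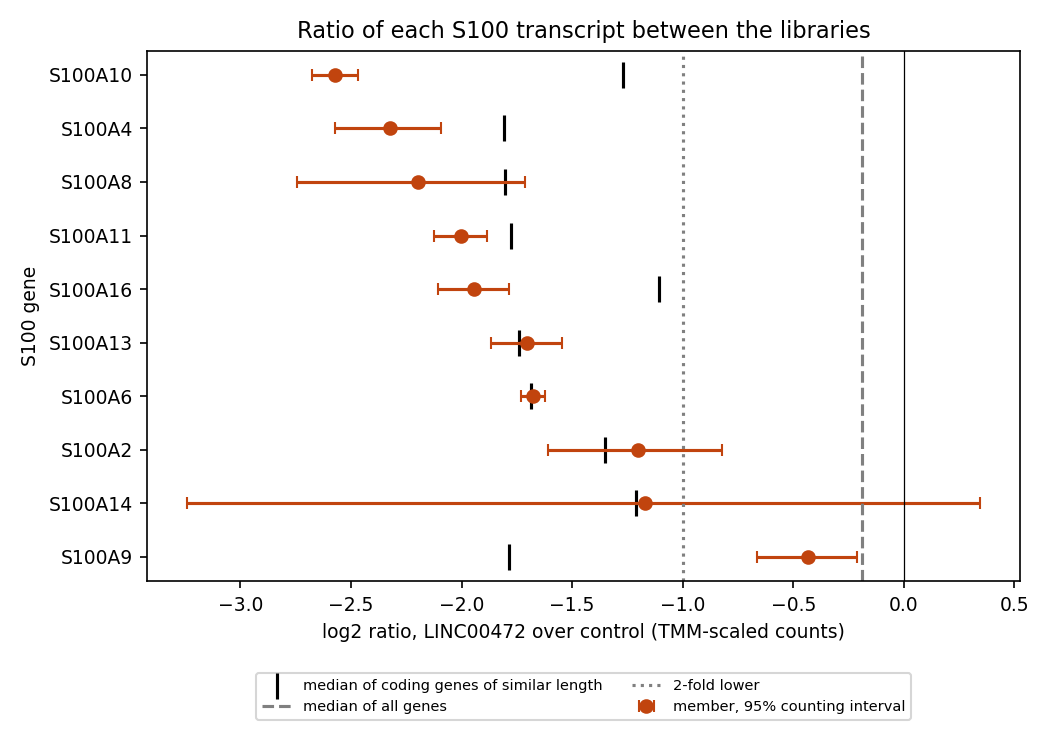
Log2 ratio of LINC00472 over control from TMM-scaled counts for each S100 gene, with 95% counting intervals, the median of protein-coding genes of similar length (black ticks) and the median of all genes at the minimum (dashed, -0.19). S100A10 at -2.57 lies farthest below its tick and S100A9 at -0.43 farthest above it.

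Read against genes of similar length, the members split. S100A10 (-1.30), S100A16 (-0.84), S100A4 (-0.52), S100A8 (-0.39) and S100A11 (-0.23) lay below the median log2 ratio of their length class. S100A6 (0.01), S100A13 (0.03), S100A14 (0.04) and S100A2 (0.15) lay slightly above it, and S100A9 lay 1.35 above. For S100A8, S100A6, S100A13, S100A14 and S100A2 the counting interval includes the class median, so counting error alone leaves their side open. For the other members the interval excludes the class median. The spread between cultures was not measured, so the side of those members is not settled either. Only S100A10 was more than 2-fold below its length class and only S100A9 more than 2-fold above. Among the 9 members at the minimum, the difference between log2 ratios had an interval, of counting error only, that excluded 0 for 28 of 36 pairs. Of the 8 neighbouring pairs in the order from S100A10 to S100A9, the interval excluded 0 for 3: S100A16 with S100A13, S100A6 with S100A2, and S100A2 with S100A9.

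**Figure D3:**
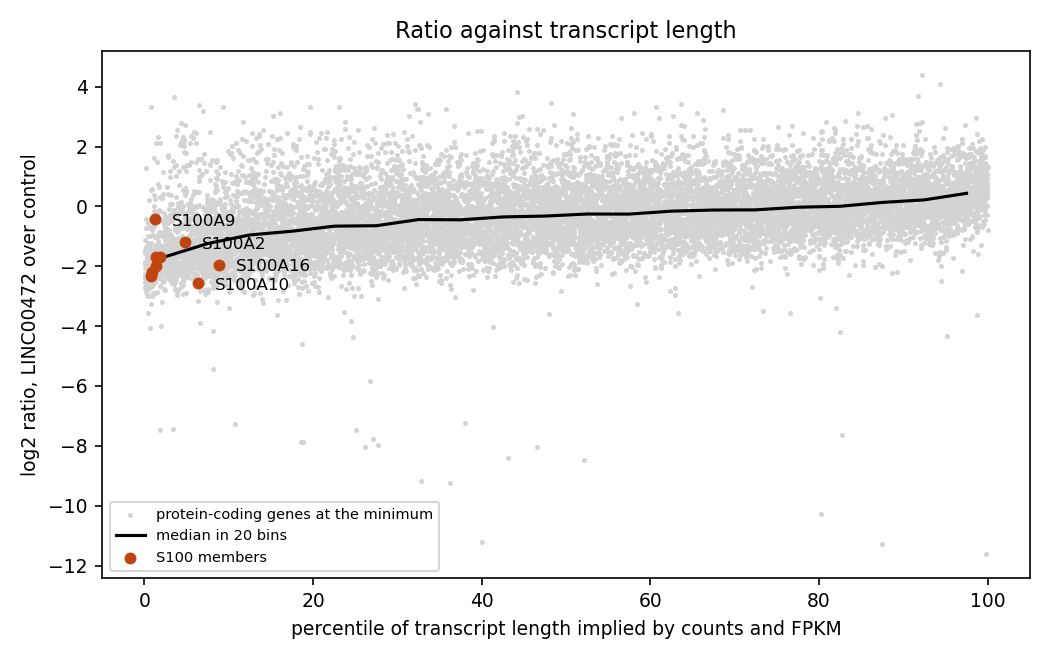
Log2 ratio of LINC00472 over control against the percentile of transcript length implied by the deposited counts and FPKM, for protein-coding genes at the minimum (grey), their median in 20 bins (line) and 9 S100 members (orange). The members lie between percentiles 0.81 and 8.85, where the line is lowest. S100A9 lies above the line, and the members below it include S100A10 and S100A16.

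The make-up of the S100 transcripts also differed, and shares within the 10 genes need no scaling between libraries. The 10 genes held 5829 counts in LINC00472 cells and 45796 in control cells. That was 0.0276% of all counts (exact 95% interval 0.0269 to 0.0284) in LINC00472 cells and 0.0835% (0.0828 to 0.0843) in control cells. A share of all counts amounts to scaling by totals. It was 3.02-fold lower in LINC00472 cells, whereas the TMM-scaled sum was 3.69-fold lower. S100A6 made up 54.3% of the counts of the 10 genes (53.0 to 55.6) in LINC00472 cells and 47.0% (46.5 to 47.4) in control cells. S100A10 made up 14.1% (13.2 to 15.0) in LINC00472 cells and 22.7% (22.3 to 23.1) in control cells. The share of S100A9 was 3.77% (3.30 to 4.30) in LINC00472 cells and 1.38% (1.28 to 1.49) in control cells. S100A11 held a share of 10.9% in LINC00472 cells and 11.9% in control cells, and S100A16 held 6.04% in LINC00472 cells and 6.29% in control cells, with overlapping intervals for both genes. In all, 5 members held a larger share in the LINC00472 library, and for 2 of them, S100A13 and S100A14, the intervals overlapped those of the control library.

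**Figure D4:**
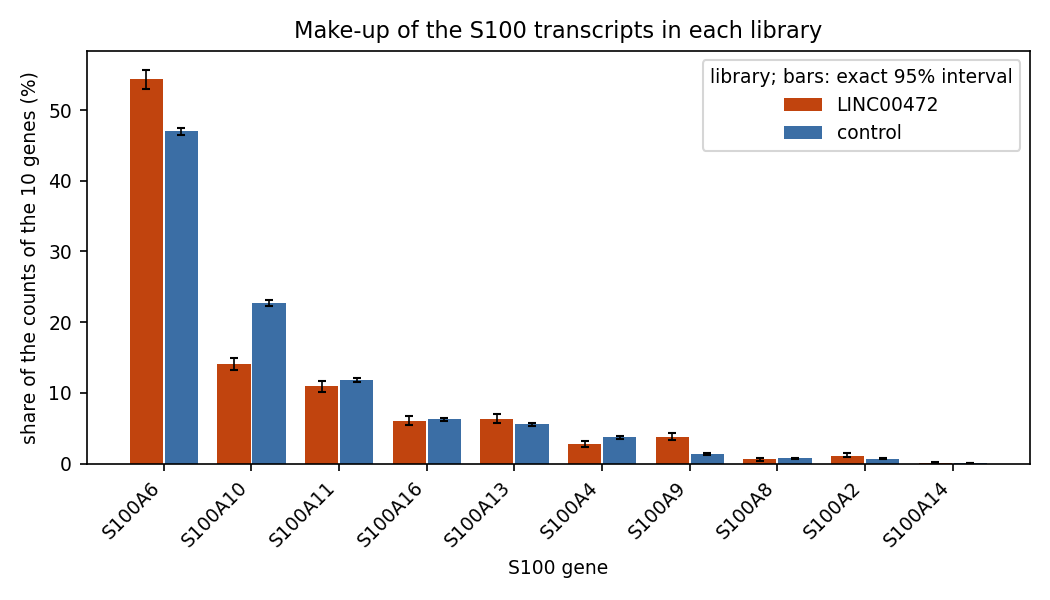
Share of the summed counts of the 10 S100 genes held by each gene, in percent, in the LINC00472 library (left bar) and the control library (right bar), with exact 95% intervals. S100A6 and S100A9 hold larger shares in LINC00472 cells and S100A10 a smaller one (14.1% against 22.7%).

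The other S100 genes were few in these cells. Of 10, 6 had a count in at least 1 library and 2 reached the minimum. S100P, a placental and carcinoma member, had 61 counts in LINC00472 cells and 347 in control cells, or 5.08 FPKM in LINC00472 cells and 11.9 FPKM in control cells, and was 2.66-fold lower (log2 ratio -1.41, interval -1.84 to -1.02). Its binding protein S100PBP had 1851 counts in LINC00472 cells and 3284 in control cells, with a log2 ratio of 0.26. S100P lies at percentile 0.79 of implied transcript length, and the part of length in its difference from S100PBP was not tested. S100A3, a member of hair follicles, had 28 counts in LINC00472 cells and 111 in control cells, a log2 ratio of -0.89 that did not meet the rule. S100A12, a neutrophil protein, had 0 counts in LINC00472 cells and 20 in control cells, below the minimum (mean 0.20 CPM). Its level was 3.13-fold lower when the 0 is read as 3 counts, the floor for each library. The counting interval reaches a log2 ratio of -1.21, a smaller difference than that. S100A7 had 0 counts in LINC00472 cells and 8 in control cells, S100A5 had 0 in LINC00472 cells and 2 in control cells, and S100G had 2 in LINC00472 cells and 0 in control cells, and no difference was detectable at this depth. S100A1, S100A7A, S100B and S100Z had 0 counts in both.

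Annexins, the membrane-binding partners of several S100 proteins, were lower as well. Of 12 annexin genes, 10 reached the minimum, 7 were lower and 0 higher, with a median log2 ratio of -1.29. With upper quartile factors 4 annexins were lower. ANXA3 had a log2 ratio of -2.10 and ANXA2 of -1.97, while ANXA8 (-0.79) and ANXA4 (-0.12) did not meet the rule. ANXA2, the partner of S100A10, had 160 FPKM in LINC00472 cells and 552 FPKM in control cells. The FPKM of S100A10 was 0.207 times that of ANXA2 in LINC00472 cells and 0.314 times in control cells, and the log2 ratio of S100A10 was lower by 0.60 (difference -0.60, interval -0.71 to -0.49). Pseudogene copies can share reads with ANXA2. In implied transcript length ANXA2 lies at percentile 15.5 and S100A10 at 6.34, and ANXA1 lies at 14.6 and S100A11 at 1.33. The part of length in the differences from these partners was not tested. ANXA1, which pairs with S100A11, had 98.6 FPKM in LINC00472 cells and 190 FPKM in control cells, a log2 ratio of -1.13 that missed 2-fold with total counts (-0.85), upper quartile factors (-0.75) and FPKM (-0.94), and S100A11 differed from it by -0.87 (interval -1.002 to -0.74).

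Other targets and receptors of S100 proteins held calls in both directions. Of 21, 20 reached the minimum, 10 were lower and 2 higher, with a median log2 ratio of -0.75. With total counts or upper quartile factors 5 were lower and 3 higher, and in FPKM with 0.5 added 6 were lower and 3 higher. CACYBP, the calcyclin-binding protein named for S100A6, had 26.2 FPKM in LINC00472 cells and 107 FPKM in control cells (log2 ratio -2.21), and EZR, a linker of membrane and actin, had a log2 ratio of -2.03. MYH9, the heavy chain bound by S100A4, had 53.0 FPKM in LINC00472 cells and 104 FPKM in control cells (-1.16), a difference under 2-fold with total counts (-0.87), upper quartile factors (-0.77) and FPKM (-0.97). AHNAK, a giant scaffold that binds the complex of S100A10 and annexin A2, went the other way without reaching 2-fold, with 251 FPKM in LINC00472 cells and 114 FPKM in control cells (0.96). It passed 2-fold with total counts (1.25), upper quartile factors (1.35) and FPKM with 0.5 added (1.13). AHNAK lies at percentile 99.9 of implied transcript length and MYH9 at 93.1, beside 6.34 for S100A10 and 0.81 for S100A4. Ratios ran with length, and the part of length in these differences was not tested. The receptor gene AGER was higher from 95 counts in LINC00472 cells and 61 in control cells (1.72, interval 1.25 to 2.22), and PLAT, whose product activates plasminogen, was higher at 1.12. TLR4 had 0 counts in LINC00472 cells and 4 in control cells.

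Genes that share the EF-hand fold were also mostly lower. Of 32 other EF-hand genes, 31 reached the minimum, 18 were lower and 2 higher, with a median log2 ratio of -1.32. TNNC1, a troponin, had a log2 ratio of -3.99 and MYL9, a myosin light chain, of -2.71. GCA (1.74), a grancalcin, and RCN3 (1.76), a reticulocalbin, were higher. GCA had 142 counts in LINC00472 cells and 90 in control cells, and RCN3 had 162 in LINC00472 cells and 101 in control cells. At a minimum of 5 CPM both fell below it and held no call. The long fused-type S100 genes were scarce. Of 7, 2 reached the minimum, and FLG, filaggrin of the epidermis, was lower from 24 counts in LINC00472 cells and 126 in control cells (-1.29), whereas TCHH, trichohyalin, did not meet the rule (-0.70). FLG, the sole call of this list, missed 2-fold with upper quartile factors (-0.91) and in FPKM with 0.5 added (-0.22). These lists lie beside a background of 23.8% lower and 16.3% higher over all genes. Among protein-coding genes in the length range of the members, 66.1% were lower and 6.09% higher. The lists mix lengths: S100P lies at percentile 0.79 of implied length, TNNC1 at 1.91, MYL9 at 8.18 and FLG at 99.3. No list was set against genes of its own lengths.

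**Figure D5:**
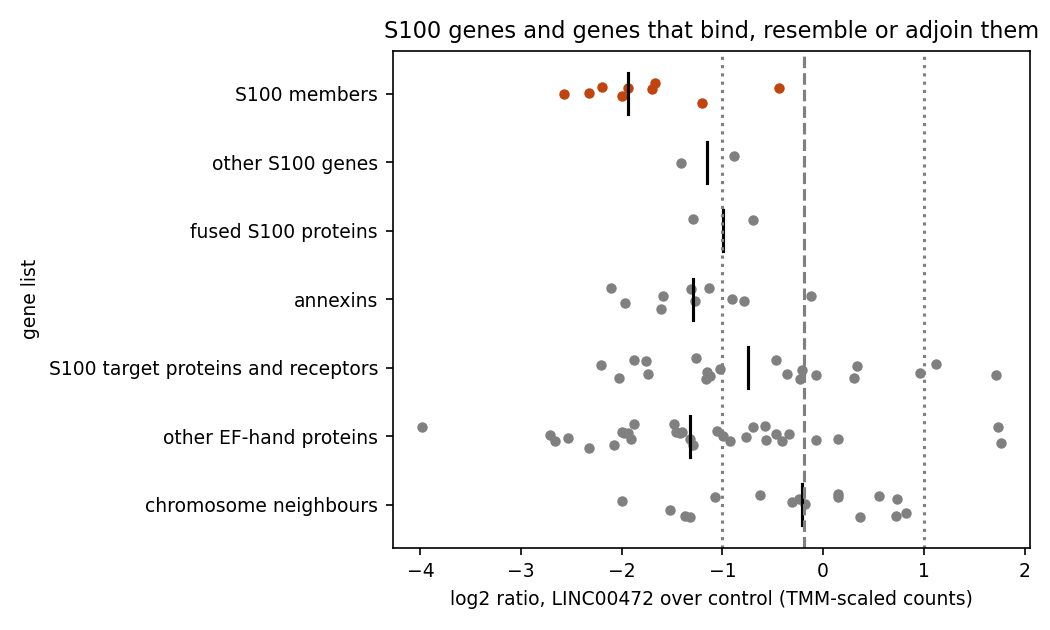
Log2 ratio of LINC00472 over control for genes at the minimum in each list, 1 point a gene, with the list median (black), the median of all genes (dashed, -0.19) and 2-fold bounds (dotted). The S100 members have a median of -1.94, annexins -1.29, other EF-hand genes -1.32 and chromosome neighbours -0.21.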

How the data were processed

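RNA of 2 NCI-H838 cultures, 1 per group, was compared, with groups taken from the sample titles. Per the file headers, the authors deposited read counts per gene and FPKM. Per the submitters' processing notes, StringTie 1.3.4b, HISAT2 2.1.0, Trimmomatic and bcl2fastq 2.20.0 were used with hg19, in roles not stated. How reads were counted, whether by strand, and how ribosomal RNA was removed is not given in the sources used here. Counts of all 27685 genes matched between the table of both libraries and the single-library tables.

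Library sizes were adjusted by TMM in edgeR 4.0.16 (R 4.3.3). The log2 ratio of LINC00472 over control used a prior count of 0.5. Ratio intervals are exact conditional 95% intervals, shares have exact Clopper-Pearson intervals, and pairs of genes have exact conditional odds ratio intervals (scipy 1.17.1). They cover counting error only, and may be too narrow even for that, since reads without molecular identifiers are not independent molecules. Transcript length was implied from counts over FPKM in the control, for protein-coding genes (RefSeq messenger RNA listed) with at least 20 counts there. Because counts may themselves come from coverage, that length is used only to rank genes and to find genes within 25% of it.

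Named genes are the members, LINC00472, other S100 genes, set partners, and the 2 highest and 2 lowest of each list; other annotated partners, markers and motif windows were named after their values were seen. Members and lists were chosen with earlier results of these data known. Alternatives were scaling by upper quartile, by DESeq2 1.42.0 size factors or by total counts, a prior count of 5, the single-library tables, FPKM with 0.5 added, other minimums and genes of similar length. Promoter sequences were matched by gene ID to RefSeq on GRCh38.p14, and no hg19 coordinates are given. The values of 1 partner gene are not reported here. Matplotlib 3.10.9 drew the plots.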

Additional observations from a re-analysis of the deposited data

How the results depend on the processing

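Under scaling by upper quartile, DESeq2 size factors or total counts, under a prior count of 5, in the single-library tables and in FPKM with 0.5 added, all 60 member values stayed below 0 and 57 kept their call. The other 3 are those of S100A2 given above. The single-library tables hold the same counts, so their values could not differ. DESeq2 size factors nearly repeat TMM, with a member median of -1.943 under each. S100A14 was below the minimum in each setting, so it held no call to lose. At a minimum of 5 CPM, 6 members were lower, since S100A8 and S100A2 fell below it. Relative to genes of similar length, the sign turned for S100A2 (0.15), S100A6 (0.012), S100A9 (1.35), S100A13 (0.034) and S100A14 (0.041). That measure subtracts the median of the length class, and on it the median of the members at the minimum was -0.23. The median was -1.65 with total counts, -1.56 with upper quartile factors and -1.76 with FPKM, whose scaling moved the median of all genes to 0.11, 0.21 and -0.01. Over all genes, upper quartile factors gave 1993 lower and 3531 higher, against 3341 and 2288 with TMM; no minimum gave 3657 higher and a minimum of 5 CPM 1347 higher. Over the 6 partner lists together, 42 lower and 4 higher became 27 lower and 8 higher with upper quartile factors, 8 higher with total counts and 1 higher at 5 CPM; the cause was not tested. The summed share of the members was 3.02-fold lower, 2.91-fold without the 100 most abundant genes and 2.83-fold in FPKM. No paired analysis was possible because each group held 1 library, and no replicate could be left out. Depth limits S100A14, S100A5, S100A7 and S100G.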

Other observations

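Genes that lie next to the S100 clusters on chromosome 1 had a median log2 ratio nearer to that of all genes than to that of the members. Of 18 neighbours, 16 reached the minimum, 5 were lower and 0 higher, and their median log2 ratio was -0.21, beside -0.19 for all genes, of which 23.8% were lower and 16.3% higher. The counts depended on the scaling, with 4 lower and 3 higher under total counts and 2 lower and 3 higher under upper quartile factors. SNAPIN, a gene of vesicle fusion and lysosome transport, had a log2 ratio of -1.996 with 226 counts in LINC00472 cells and 1920 in control cells. MRPL9, a mitochondrial ribosomal protein gene, had -1.52 with 469 counts in LINC00472 cells and 2867 in control cells. At the other end, CREB3L4, a transcription factor gene, had 0.82 and GATAD2B, a subunit gene of a histone deacetylase complex, had 0.73, and neither met the rule, but both passed 2-fold with total counts (1.11 and 1.02) and with upper quartile factors (1.21 and 1.12). SNAPIN lies at percentile 6.11 of implied transcript length and GATAD2B at percentile 92.1, while the members lie between 0.81 and 8.85. Most neighbours are thus longer than the members, and the medians do not compare genes of like length. The part of length in the contrast was not tested.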
